A study of Mus musculus with 6 samples.

Results

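The genes of DNA replication and repair were compared between the cochlear sensory epithelium (CSE) of newborn and adult mice. The group held 39 genes, chosen by name, and all of their probe sets that the array annotation assigned to 1 gene only were taken. These were 88 of the 45101 probe sets on the array, and 70 of them exceeded the background level on 3 or more of the 6 arrays and entered the test. Every one of the 39 genes had at least 1 such probe set, among 13743 genes in all. By role, 5 genes license the origins of replication, 27 work at the replication fork, 4 supply nucleotides and 3 repair DNA.

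DNA is copied from origins on which the origin recognition complex, Cdc6 and Cdt1 load the MCM helicase before S phase. In S phase Cdc45 and the GINS complex activate that helicase, RPA coats the single strands, and the polymerases extend primers while the clamp PCNA, loaded by RFC, holds them on the template. Many of these genes are transcribed under the control of E2F factors when cells commit to division, and hair cells and supporting cells of the mammalian cochlea leave the cell cycle before birth. Repair genes serve dividing and resting cells alike, and several of them also act at stalled forks.

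Swiss mice (Swiss Webster in the methods) were used at postnatal day 3 (P3) and as adults of 8 weeks, with no genetic change or treatment named for either stage. Each stage had 3 arrays, and each array carried RNA of a pool of 40 CSE from 20 mice, so an SD below describes 3 pools and not single animals. By the study's description, the P3 tissue also held the greater and lesser epithelial ridges, while the adult tissue held inner sulcus and interdental cells, and the stages were dissected separately. Of 11 hair cell markers listed, 9 had a probe set of their own and 7 exceeded background on enough arrays to be tested. Of these 7, 5 were above background on all P3 arrays and 5 on all adult arrays. Of 12 supporting cell markers, all tested, 11 were above background on all P3 arrays and 12 on all adult arrays. Among all 13743 tested genes the counts were 11090 and 12187.

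P3 replicate 1 stood apart from the other arrays. Its 3' to 5' signal ratio for the Gapdh control was 82.0, against 0.707 to 2.07 elsewhere, and 47.4% of its probe sets were above background, against 58.6% to 68.1%. The background level, set from receptor genes of smell and taste, was 34.5 on this array and 6.29 to 16.3 on the others. The main counts over members, fork genes and repair genes are therefore also given without it. All values are MAS5.0 signals on a linear scale, and log2 fold changes are adult minus P3, so that a negative value is a lower adult signal. A gene was represented by its brightest tested probe set and called at a limma adjusted p under 0.05 with a change of at least 2-fold.

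Since E2F factors act on many replication genes, the promoters of the members were searched for E2F-type words. RefSeq windows of 250 bases before and 50 after a transcript start (build GRCm38.p6) were found for 33 of the 39 genes, and not for Mcm4, Gins1, Gins2, Rfc2, Pole and Prim2. The words TTTCGCGC and TTTGGCGC, read on both strands (GCGCGAAA and GCGCCAAA on the other), occurred in 9 of the 33 genes (27.3%) and in 0.929% of all 27025 genes with a window. They were found in 7 of 21 fork genes (Mcm3, Mcm5, Mcm6, Mcm7, Rfc3, Pola1 and Lig1) and in 2 of 5 licensing genes (Orc1 and Cdt1), and in none of the 4 nucleotide supply genes or the 3 repair members. With TTTCCCGC and TTTGCCGC added, 13 of 33 members (39.4%) held a word, against 2.60% of all genes, and these included 2 of the 3 repair members. Of 59 genes on 6 further repair lists, 3 (5.08%) held one of the first pair of words. A cell-cycle element of mitotic genes (TTTGAA or TTCGAA) was found in 5 of 33 members (15.2%), in 8 of 10 markers of dividing cells and in 21.7% of all genes.

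The 3 promoters shown are among those in which words lay before the start. Words also lay before the start in Orc1 and Pola1, which are not shown. The stretches printed lay outside every gene of the RefSeq table, with the words in capitals and the sequence 5′ to 3′ on the strand of the gene. The Mcm6 stretch, chr1:128359726-128359865 on the minus strand, ran from 160 to 21 bases before the start. It held 3 occurrences, the first 2 of which overlap in a single run of capitals. The Mcm5 stretch, chr8:75109329-75109388 on the plus strand, lay 180 to 121 bases before the start, with 2 overlapping words. The Rfc3 stretch, chr5:151651209-151651268 on the minus strand, was the 60 bases just before the start.
Mcm6: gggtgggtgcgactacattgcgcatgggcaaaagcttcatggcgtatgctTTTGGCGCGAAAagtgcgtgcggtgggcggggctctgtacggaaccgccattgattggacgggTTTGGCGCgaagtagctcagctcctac
Mcm5: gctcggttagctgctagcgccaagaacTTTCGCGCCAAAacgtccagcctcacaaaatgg
Rfc3: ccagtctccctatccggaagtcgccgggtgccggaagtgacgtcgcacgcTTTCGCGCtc
A word in such a window is a description of its letters and was not tested for binding. The 9 members with a word had log2 fold changes between -1.47 (Mcm6) and -0.54 (Lig1), with a median of -0.78, and the 24 members with a window and no word had a median of -0.91.

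Transcripts of the replication machinery were lower in the adult CSE across most of the group. Of the 39 genes, 36 had a lower mean log2 signal in the adult, a direction seen for 52.3% of all 13743 genes, and 16 were lower by at least 2-fold, as were 12.3% of all genes. The median log2 fold change of the group was -0.86, or -0.78 with Tyms, which was not above background in the adult, at its bound, and that of all genes was -0.04. In bulk tissue, fewer cells that express a gene and less RNA per cell cannot be told apart. By limma, 6 genes were called higher at P3 (Orc6, Mcm6, Gins2, Rpa2, Rpa3 and Pole), against 5.49% of all genes, and 0 in the adult, against 4.53%. At an unadjusted p under 0.05, with no limit on the fold, limma gave 20 members higher at P3 and 0 in the adult. The share of all genes at that level is not given, here or for the unadjusted counts below, so these counts have no base to be read against.

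All 3 P3 arrays lay above all 3 adult arrays for 21 of the 39 genes, as they did for 20.3% of all genes, and 15 of these 21 were not called. The reverse order was found for 1 member, Rpa1, and for 15.9% of all genes. Signals were above background on every P3 array for 35 members and on every adult array for 29, and 1 member, Tyms, was above background on no adult array. Of all 13743 genes, 11090 were above background on every P3 array, 12187 on every adult array and 98 on no adult array. All of these genes had first passed the background filter, which limits what such counts can show. Without P3 replicate 1, 35 members were lower in the adult, 16 by at least 2-fold, and 25 had all remaining P3 arrays above the adult ones, a separation then seen for 28.9% of all genes. The group median was then -0.87, and 8 members were called, the same 6 with Rfc3 and Rfc5. The share of all genes called is given for the main analysis only. For several other settings the numbers of all probe sets called are given in the closing section, and the numbers of members called have to be read beside them. The number called was 0 when P3 replicate 2, P3 replicate 3 or adult replicate 3 was left out, where 17, 14 and 13 members were higher at P3 at an unadjusted p under 0.05, and it was 2 without adult replicate 1 (Gins2 and Rpa3). It was also 0 after scaling the arrays to the same median, where 13 members passed unadjusted. Among all probe sets tested, 284 were then called higher at P3, against 1125 in the main analysis. Over 16 alternative analyses, Gins2 was called in 12, Rpa3 in 11, Pole in 10, and Orc6, Mcm6 and Rpa2 in 8 each, and none of the 6 changed direction.

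**Figure D1:**
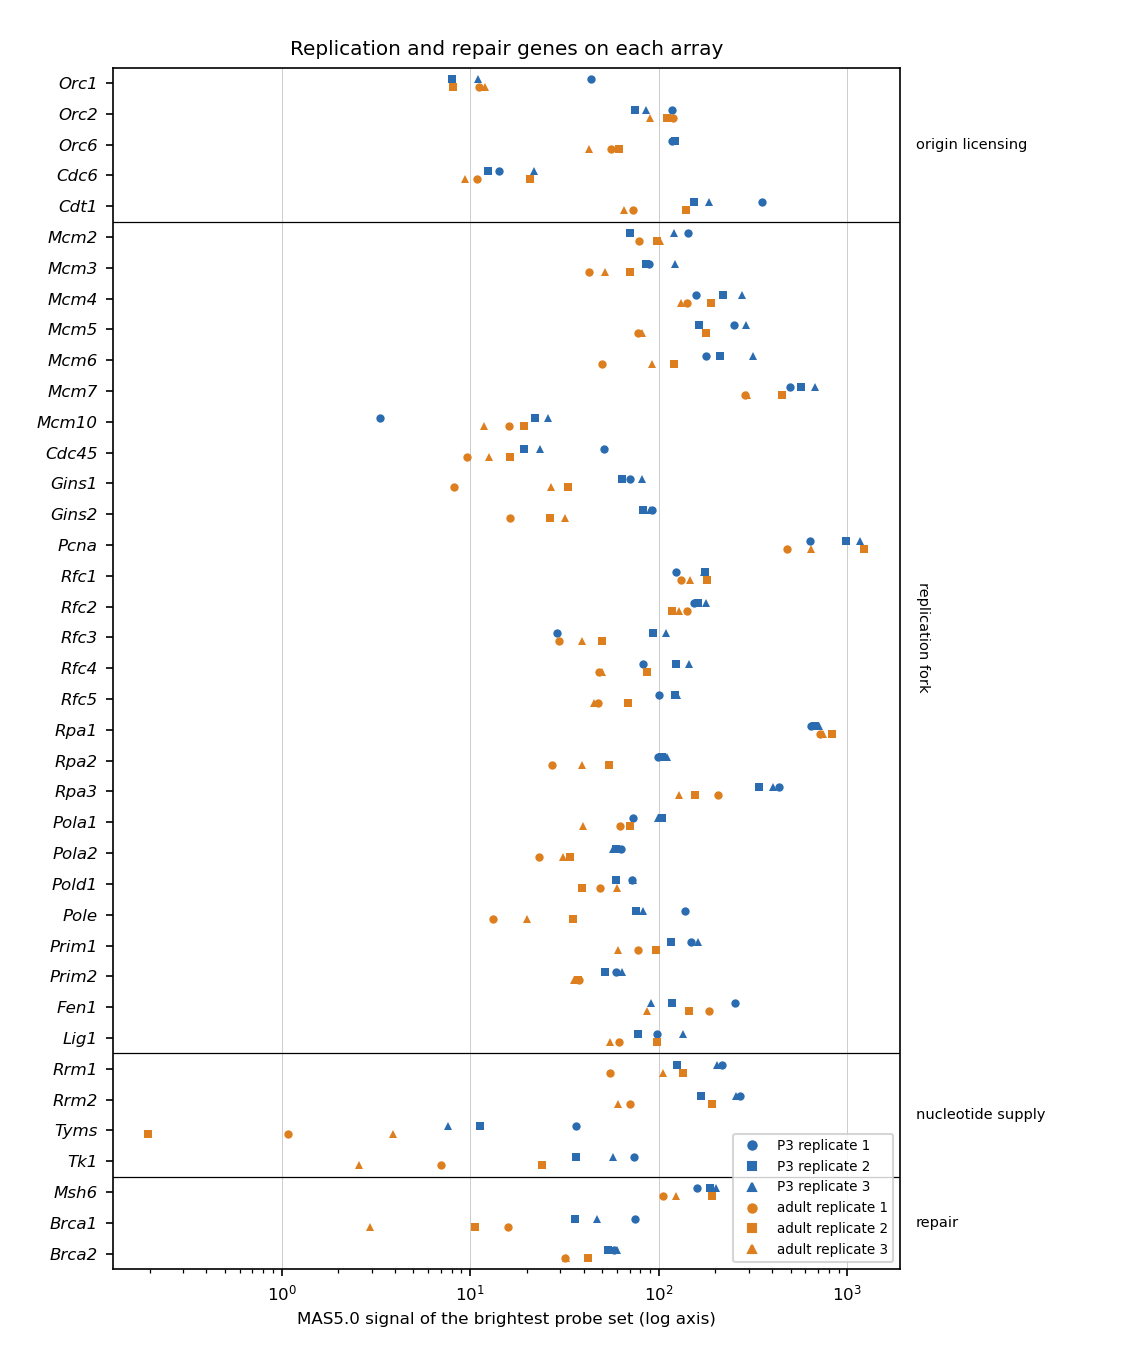
MAS5.0 signal (log axis) of the brightest probe set of each of the 39 genes on the 6 arrays, P3 in blue and adult in orange, with a marker shape for each replicate and lines between the roles. For 21 genes the 3 P3 arrays lie above the 3 adult arrays, and for Rpa1 the order is turned.

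**Figure D2:**
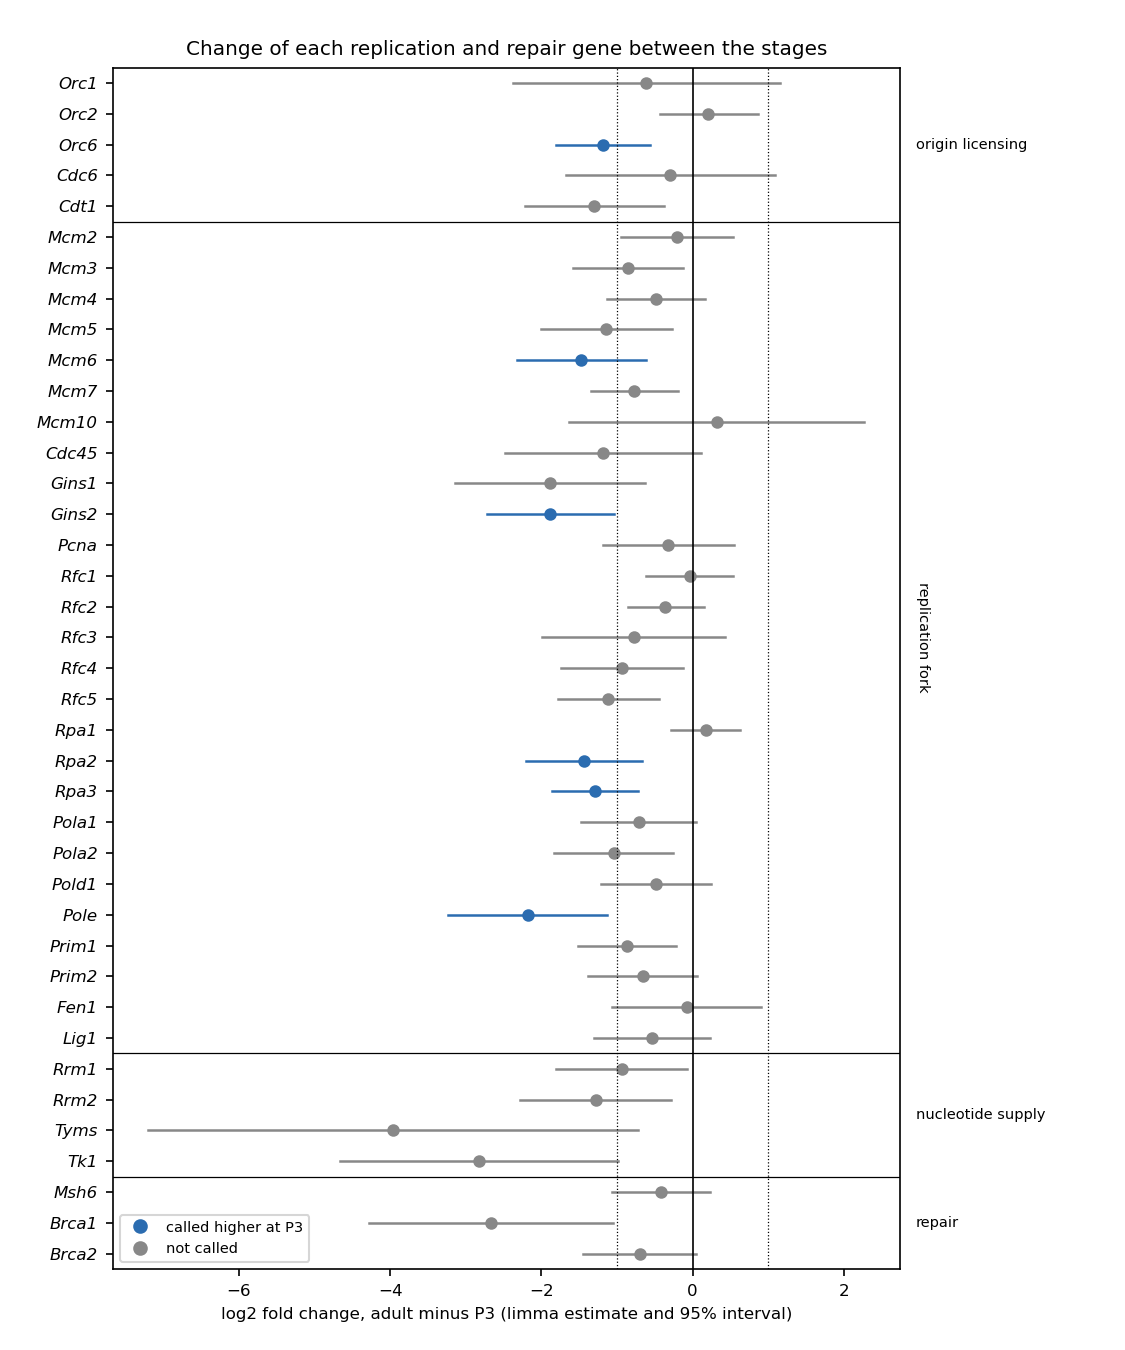
Log2 fold change (adult minus P3) of each gene with its 95% interval from limma, called genes in blue, and dotted lines at 2-fold. Points lie left of 0 for 36 of 39 genes, and the 6 called genes are Orc6, Mcm6, Gins2, Rpa2, Rpa3 and Pole.

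Among the licensing genes, 1 of 5 was called. Orc6, a small subunit of the origin recognition complex, gave signals of 118, 122 and 121 on P3 replicates 1 to 3 and 56.1, 61.7 and 42.6 on the adult arrays. The P3 arrays were nearly equal and the stages were far apart. The mean signal was 120 ± 2.04 at P3 and 53.4 ± 9.82 in the adult (SD, n = 3 arrays). Its log2 fold change of -1.19 (SE 0.27) was called, with a limma adjusted p of 0.0361. Cdt1, which brings the helicase to the origin, gave 351, 153 and 186 at P3 and 72.8, 140 and 65.8 in the adult. Its stages did not overlap, yet P3 replicate 1 and adult replicate 2 widened the spread, and the change of -1.30 (SE 0.40) was not called (limma adjusted p = 0.0913).

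None of the other licensing genes was called. Orc2, a core subunit of the same complex as Orc6, had a log2 fold change of 0.21 (95% interval -0.43 to 0.86), with overlapping signals of 74.8 to 118 at P3 and 89.5 to 119 in the adult. Cdc6, the ATPase that acts between the complex and the helicase, was near background throughout, at 12.5 to 21.9 at P3 and 9.44 to 20.7 in the adult (log2 fold change -0.30, SE 0.61). Orc1, the largest subunit, was above background on 2 P3 arrays and 1 adult array. Its log2 fold change of -0.61 (SE 0.77) rested on P3 replicate 1 and was 0.13 without it.

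The 6 subunits of the MCM2 to 7 helicase all had lower mean log2 signals in the adult, with changes between -1.47 and -0.21 and a median of -0.81, and 1 of them was called. Mcm6 gave 179, 211 and 316 at P3 and 50.3, 121 and 91.9 in the adult. The lowest P3 array of Mcm6 was above its highest adult array. The log2 fold change was -1.47 (SE 0.37), with a limma adjusted p of 0.0490, and a second probe set of Mcm6 gave -1.55 (SE 0.28, adjusted p = 0.0148). Mcm5 had a change of -1.14 (SE 0.38) and was not called (limma adjusted p = 0.111). Adult replicate 2, at 178, lay above the lowest P3 array, at 163. The other adult arrays of Mcm5 were at 77.5 and 81.5.

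Mcm7 gave 495, 569 and 670 at P3 and 287, 453 and 293 in the adult, a change of -0.77 (SE 0.25). Mcm3 gave 88.5, 85.9 and 121 against 42.4, 70.4 and 51.9, a change of -0.86 (SE 0.32). By the brightest probe sets the stages did not overlap for either gene, and neither was called. Mcm4 (-0.48, SE 0.28) and Mcm2 (-0.21, SE 0.32) had overlapping arrays. The changes within this complex thus covered a range, and the intervals of the extremes, Mcm6 (-2.32 to -0.62) and Mcm2 (-0.95 to 0.53), overlapped.

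Of the factors that turn the loaded helicase on, Gins2 was called. This GINS subunit gave 91.7, 82.0 and 90.2 at P3 and 16.2, 26.5 and 31.7 in the adult. No adult array came near the P3 signals, and 1 of the 3, replicate 1, was just under its background level. The mean was 88.0 ± 5.18 at P3 and 24.8 ± 7.86 in the adult (SD, n = 3). Its log2 fold change was -1.88 (SE 0.37), with a limma adjusted p of 0.0203, and it ranged from -2.51 to -1.41 over the alternatives (adjusted p from 0.00048 to 0.0883). A second, dimmer probe set gave -3.14 (SE 0.89) and was not called. The partner subunit Gins1 gave 70.2, 63.8 and 81.8 at P3 and 8.21, 32.9 and 26.8 in the adult. The change of -1.89 (SE 0.55) had the size of that of Gins2, with a wider spread among adult arrays. The signal on adult replicate 1 was below its background level of 16.3. Gins1 was not called (limma adjusted p = 0.0768).

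Cdc45, the helicase cofactor, gave 51.5, 19.4 and 23.5 at P3 and 9.69, 16.4 and 12.6 in the adult (log2 fold change -1.18, SE 0.57), and its dimmer probe set gave 1.26 (SE 1.03). Mcm10, which binds the activated helicase, was not measured well at either stage. Its P3 signals of 3.34, 22.2 and 25.7 surrounded the adult signals of 16.2, 19.3 and 11.8. The change was 0.32 (SE 0.86), and it was -0.63 without P3 replicate 1.

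Of the 3 subunits of RPA, the complex that covers single-stranded DNA, 2 were called. Rpa2 gave 99.4, 105 and 111 at P3 and 27.1, 54.4 and 39.2 in the adult (log2 fold change -1.44, SE 0.34, with limma's adjusted p at 0.0384). Rpa3 gave 435, 342 and 401 against 207, 155 and 128, a change of -1.29 (SE 0.25, adjusted p = 0.0189). In both genes the stages were well separated. Rpa1, the largest subunit, gave 641, 673 and 711 at P3 and 719, 829 and 743 in the adult. Each adult array was slightly above each P3 array, and the change of 0.18 (95% interval -0.28 to 0.63) was not called. The intervals of Rpa2 (-2.21 to -0.67) and Rpa3 (-1.86 to -0.72) did not reach that of Rpa1, and the difference between the subunits was not itself tested.

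Pcna, the sliding clamp, gave 633, 989 and 1166 at P3 and 482, 1229 and 641 in the adult. The highest of the 6 arrays was adult replicate 2. The change was -0.32 (95% interval -1.18 to 0.55), and -0.70 without that array, and was not called in either case.

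The 5 subunits of RFC, which opens the clamp and closes it on DNA, had changes between -1.12 and -0.04 with a median of -0.78, and none was called. Rfc5 came closest, with 101, 122 and 125 at P3 and 47.9, 68.4 and 45.6 in the adult (-1.12, SE 0.29, limma adjusted p = 0.0535). Rfc1, the large subunit, gave 124, 175 and 173 against 132, 180 and 147, so that the stages overlapped almost fully (-0.04, 95% interval -0.62 to 0.54). Rfc3 gave 28.9 on P3 replicate 1 and 93.1 and 109 on the other P3 arrays, against 29.6, 50.2 and 39.0 in the adult. The change was -0.78 (SE 0.53), and -1.38 (SE 0.32, limma adjusted p = 0.0359) without P3 replicate 1, within a range of 0.00175 to 0.731 for the adjusted p over all alternatives. Rfc2 (-0.36, SE 0.22) was separated between the stages, and Rfc4 (-0.94, SE 0.35) overlapped through adult replicate 2.

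All 6 genes of the replicative polymerases and the primase had lower mean log2 signals in the adult, with a median change of -0.79. In 5 of them all P3 arrays lay above all adult arrays, as they did for 20.3% of all genes. Pole, the catalytic subunit of polymerase epsilon, which copies the leading strand, gave 138, 76.0 and 82.8 at P3 and 13.2, 35.1 and 20.1 in the adult. The log2 fold change was -2.18 (SE 0.46), or 4.53-fold between geometric means, with a limma adjusted p of 0.0265, and it was above background on 2 of the 3 adult arrays. Without P3 replicate 1, its highest array, the change was -1.91 (limma adjusted p = 0.0379, from 0.000144 to 0.109 over all alternatives).

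The genes of polymerase alpha and primase, which lay down the primers, had smaller changes. Pola2 gave 63.3, 59.1 and 57.2 at P3 and 23.3, 33.9 and 31.1 in the adult (-1.04, SE 0.34), Prim1 had a change of -0.87 (SE 0.28), Pola1 of -0.71 (SE 0.33) and Prim2 of -0.66 (SE 0.32). None of these was called (limma adjusted p = 0.109, 0.104, 0.243 and 0.252). Pold1, the catalytic subunit of polymerase delta on the lagging strand, had a change of -0.49 (95% interval -1.21 to 0.24) and overlapping arrays. The genes that finish the lagging strand had smaller changes still in the mean. Fen1, the flap nuclease, had a change of -0.07 (95% interval -1.06 to 0.91) and Lig1, the ligase that seals the fragments, of -0.54 (-1.31 to 0.23). On P3 replicate 1 Fen1 stood at 253, against 118 and 90.7 on the other P3 arrays, and its change was 0.36 without that array. A dimmer probe set of Fen1 was lowest of the P3 arrays on replicate 1. It gave 54.9, 73.3 and 66.5 at P3 and 43.8, 78.8 and 40.1 in the adult (-0.32, SE 0.36).

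None of the 4 genes of nucleotide supply was called. Their median of -2.05 rested on Tk1 and Tyms, which had large errors and adult signals mostly below background, and it was -1.11 with Tyms at its bound. Tk1, the thymidine kinase of dividing cells, gave 74.3, 36.4 and 57.3 at P3 and 7.01, 24.0 and 2.57 in the adult, a change of -2.83 (SE 0.81, limma adjusted p = 0.0719). The stages were separated, and 1 adult array, replicate 2, was above background. Without that array no adult signal was above background, and Tk1 was at least 4.51-fold higher at P3 (limma adjusted p = 0.0294, from 0.000351 to 0.196 over all alternatives). Leaving out its highest adult array could only enlarge this change. Tyms, which makes thymidylate, gave 36.5, 11.3 and 7.63 at P3 against 1.08, 0.197 and 3.90 in the adult, all below background, so that its P3 level was at least 1.35-fold higher. This bound rested on P3 replicate 1, without which the P3 mean was 0.854 times the adult background level and no fold could be given. The tested probe set of Tyms passed the background filter through its P3 arrays alone, and its 3 other probe sets did not pass. The fitted change of -3.96 had an SE of 1.42.

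The ribonucleotide reductase genes, which make deoxynucleotides, had smaller changes and overlapping arrays. Rrm2, the subunit made in S phase, gave 270, 169 and 258 at P3 and 70.7, 191 and 61.0 in the adult (-1.28, SE 0.44, limma adjusted p = 0.120). Adult replicate 2 was again the array that reached the P3 range, and without it the change was -1.79 (SE 0.31, limma adjusted p = 0.0222, from 0.00131 to 0.373 over all alternatives). As this was the highest adult array of Rrm2, leaving it out could only enlarge the change. Rrm1, the large subunit, had a change of -0.94 (SE 0.38) by its brightest probe set.

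None of the 3 repair members was called. Brca1, which acts in homologous recombination and at damaged forks, gave 74.9, 36.1 and 47.1 at P3 and 15.95, 10.6 and 2.94 in the adult. The stages did not overlap, the change was -2.67 (SE 0.71, limma adjusted p = 0.0572), and 1 adult array was above background. Brca2, which loads the recombinase, gave 57.6, 53.6 and 59.8 against 31.8, 42.0 and 32.3 (-0.70, SE 0.33). Msh6, of the mismatch recognition dimer, gave 159, 187 and 201 against 106, 192 and 124 (-0.42, SE 0.28), with adult replicate 2 within the P3 range.

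To set the fork genes against repair genes on more than 3 members, 6 lists of further repair genes were used. Of their 77 genes, 68 had a probe set of their own and 63 were tested. With the 3 members this gave 66 repair genes, of which 2 were called higher at P3, against 5.49% of all genes, and 0 in the adult, against 4.53%, with a median log2 fold change of -0.41. The repair count was 0 when the third array of either stage was left out and 1 when the second was. For the 27 fork genes the count was 5 and the median -0.78. A lower mean log2 signal in the adult, of any size, was found for 25 of 27 fork genes and 53 of 66 repair genes, against 52.3% of all genes. At least a 2-fold lower adult signal was found for 10 of 27 fork genes and 9 of 66 repair genes, against 12.3% of all genes. P3 arrays lay above all adult arrays for 15 fork genes and 21 repair genes, against 20.3% of all genes. Without P3 replicate 1 the 2-fold counts were 11 and 9, against 11.8% of all genes, and the stages were so separated for 19 and 29, against 28.9%. Without P3 replicate 1 the medians were -0.87 and -0.36, and without adult replicate 2 they were -0.98 and -0.42. No test was made between the lists, whose genes were chosen with earlier results of these data known.

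Each repair list was also described by itself. Base excision repair, which removes damaged single bases, had 2 of 15 genes called higher at P3, against 5.49% of all genes, and a median of -0.60. After scaling the arrays to the same median, neither was called. Apex1, its endonuclease at abasic sites, gave 1045, 579 and 707 at P3 and 369, 244 and 244 in the adult (-1.43, SE 0.29, limma adjusted p = 0.0226), and Mpg, a glycosylase that removes alkylated bases, gave 112, 194 and 157 against 40.2, 60.9 and 80.8 (-1.37, SE 0.35, adjusted p = 0.0497). Homologous recombination (12 genes, median -0.41), the Fanconi anaemia genes (11, -0.39), end joining (8, -0.22), nucleotide excision repair (13, -0.18) and mismatch repair (4, -0.03) had no gene called at either stage. The 11 genes of the damage checkpoint, which holds the cell cycle after damage, had a median of -0.31 and no call. These lists are small, and a gene that was not called is not shown to be equal between the stages.

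**Figure D3:**
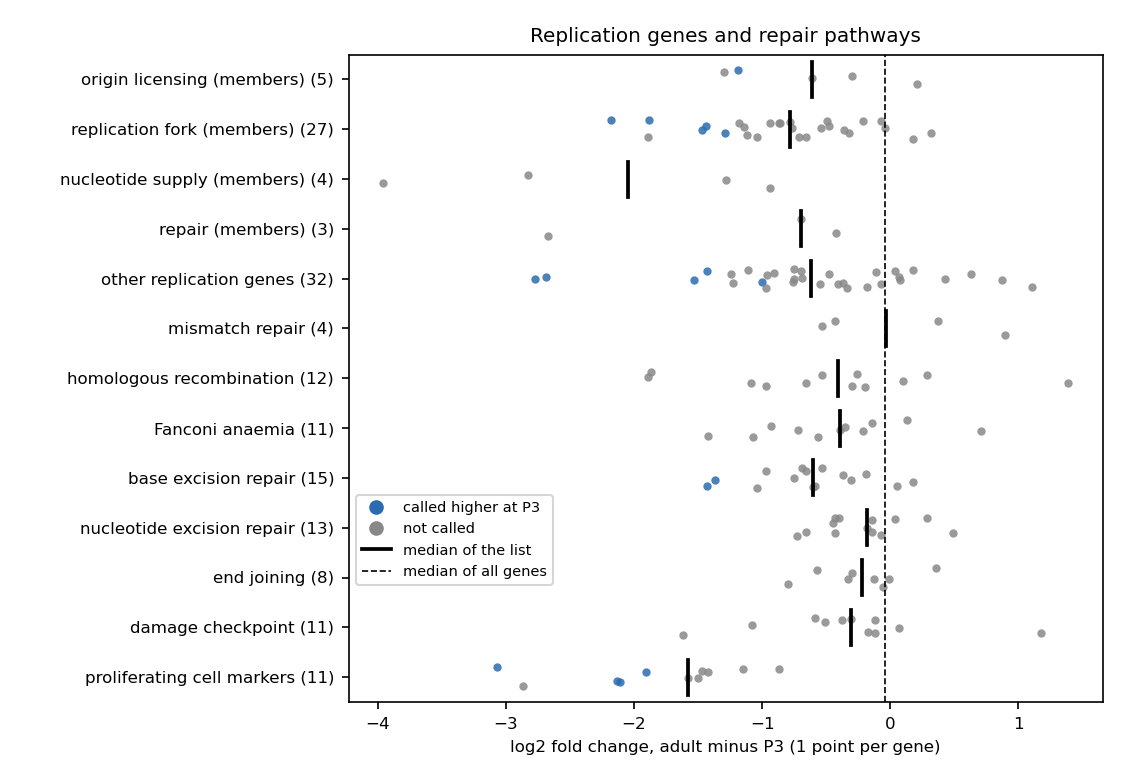
Log2 fold change (adult minus P3) of each tested gene, 1 point per gene with random vertical scatter, for the roles of the 39 members, 7 further lists of replication and repair genes, the damage checkpoint and markers of dividing cells. Black bars are list medians, from -2.05 for nucleotide supply to -0.03 for mismatch repair, and the dashed line is the median of all genes, -0.04.

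A list of other replication genes was examined beside the members. Of 36 listed, 32 were tested. Of these, 5 were called higher at P3, against 5.49% of all genes, and 0 in the adult, against 4.53%, with a median of -0.62. The count was 3 without P3 replicate 1, 2 without adult replicate 1, and 1 when P3 replicate 2, P3 replicate 3 or adult replicate 3 was left out. Dctd, a deaminase that feeds thymidylate synthesis, gave 83.8, 101 and 91.8 at P3 and 16.2, 12.99 and 11.8 in the adult (-2.77, SE 0.37, limma adjusted p = 0.00451). Pole2, the partner subunit of Pole, fell by 1.53 (SE 0.35, adjusted p = 0.0340) and Dbf4, the activator of the kinase that starts origins, by 1.43 (SE 0.35, adjusted p = 0.0432) on the log2 scale. Dscc1, of a clamp loader for cohesion, was above background on no adult array and was at least 2.98-fold higher at P3. It passed the background filter through its P3 arrays alone. With the filter at 4 or more arrays, the number of other replication genes called higher at P3 was 4. A pair of genes with higher adult means is given as well, chosen after their values were seen. Rrm2b, the reductase subunit of resting cells, gave 94.2, 132 and 98.4 at P3 and 236, 197 and 160 in the adult (0.87, SE 0.26), and Tk2, the mitochondrial thymidine kinase, had a change of 1.11 (SE 0.42). Neither was called (limma adjusted p = 0.0837 and 0.154).

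Within the adult stage, adult replicate 2 had the highest signal for 28 of the 39 members (71.8%), whereas it was the highest adult array for 33.3% of all genes. The share was 74.1% of the fork genes, 20 of 27, and 33.3% of the 66 repair genes, 22 of them. Centred on each gene's mean over the 6 arrays, the median log2 signal of the members was 0.39, 0.26 and 0.63 on P3 replicates 1 to 3 and -0.57, -0.02 and -0.53 on adult replicates 1 to 3. Adult replicate 2 thus lay between the P3 arrays and the other adult arrays. Its Gapdh 3' to 5' ratio was 0.921, against 2.07 and 1.22 on adult replicates 1 and 3, which gave no quality reason to leave it out. For a gene highest on this adult array, leaving it out must lower the adult mean. The values without it, here and above, therefore only describe its weight. Without adult replicate 2, 20 members instead of 16 were lower by at least 2-fold, against 12.6% of all genes, and 29 instead of 21 had all P3 arrays above the adult ones, against 25.0%. The group median was then -1.04. The number called was 8, with Mcm5, Rrm2 and Tk1 added, the last with no adult array then above background, and Orc6 lost (limma adjusted p = 0.0507, from 0.000145 to 0.219 over all alternatives).

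Markers of several cell types differed among the adult arrays, and those of dividing cells and marrow cells were mostly highest on this one. All 11 tested markers of dividing cells were highest among the adult arrays on adult replicate 2, and their centred median there was 0.18, against -1.34 and -1.46 on the others. Between the stages, 4 of the 11 (Bub1, Cdk1, Cenpf and Top2a) were called higher at P3, against 5.49% of all genes. The median of the 11 was -1.58. Mki67, the usual label of cycling cells, gave 139, 110 and 204 at P3 and 52.3, 210 and 46.4 in the adult, and was not called.

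Of 11 granulocyte precursor markers, 9 were called higher in the adult, against 4.53% of all genes. Of the 11, 10 had their highest adult signal on adult replicate 2. The summed signal of the 11 was 132 to 454 at P3 and 8219, 17410 and 3896 on adult replicates 1 to 3. S100a8, with the highest adult signals of the list, gave 4231, 5956 and 1590 there. At P3, 3 of the 11 were above background on no array, and these passed the background filter through the adult arrays alone. The 5 tested erythroid markers were all highest on adult replicate 2 among the adult arrays. Their summed signals were 323, 974 and 224 on adult replicates 1 to 3 and 64.1 to 158 at P3. Of the 5, 2 were called higher in the adult, against 4.53% of all genes, and 2 were above background on no P3 array. Endothelial markers were highest on adult replicate 2 for 5 of 6 genes (summed signals of 577.5, 1127 and 1066 on adult replicates 1 to 3) and B lymphocyte markers for 4 of 5 (90.2, 166 and 60.4). Neuron markers (20160, 7285 and 10360) and Schwann cell markers (19980, 5606 and 11170) had their lowest sums on adult replicate 2. The part of all these cells in the adult signals of the replication genes was not tested. Mesenchyme markers were called higher at P3 for 3 of 9 genes, against 5.49% of all genes, with a median of -1.57 over the 9. The part of mesenchyme was not tested either.

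**Figure D4:**
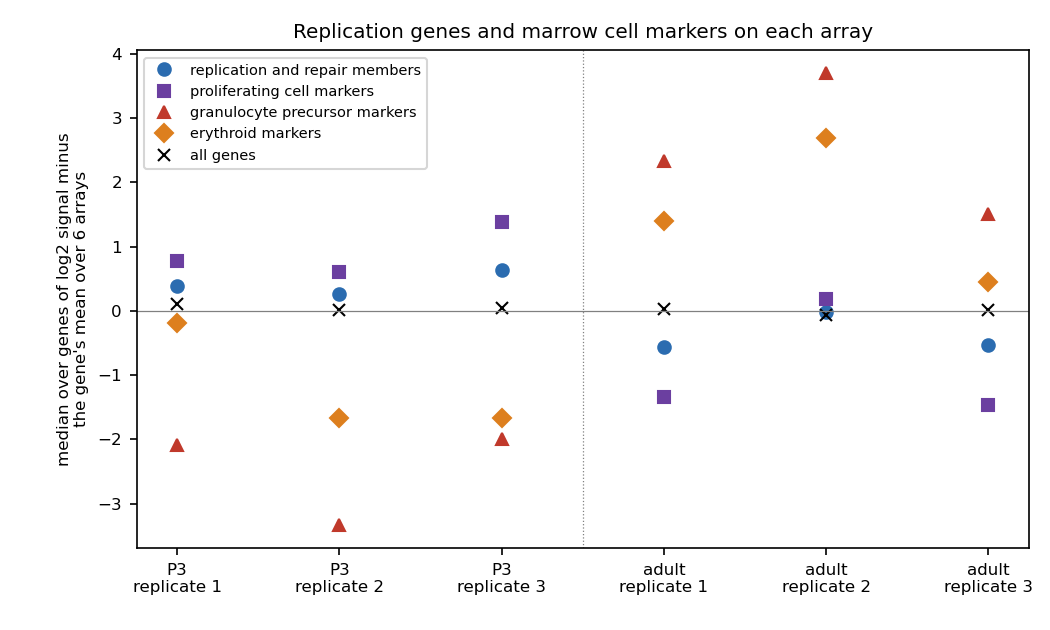
Median over genes of the log2 signal, centred on each gene's mean over the 6 arrays, for the 39 members, all genes and 3 lists of cell markers on each array. On adult replicate 2 the members stand at -0.02 and the markers of dividing cells at 0.18, above both other adult arrays, and the granulocyte precursor (3.70) and erythroid (2.69) markers are also highest there.

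Different probe sets of a member mostly gave the same direction. Of the 70 tested probe sets, 64 had a lower mean log2 signal in the adult, and the median was -0.80. Of the 70, 7 were called higher at P3, against 3.87% of all probe sets, and 0 in the adult, against 3.39%. More than 1 probe set was tested for 23 members, and for 3 of these, Orc2, Cdc45 and Rrm1, the signs differed. For Cdt1, Mcm3, Mcm7, Cdc45, Rpa2, Prim1 and Brca1 the brightest probe set separated the stages, and a dimmer tested one overlapped. The dimmer probe set of Brca1 had a change of -0.78 (SE 0.85), against -2.67 by the brightest. The 7 called probe sets belonged to the same 6 genes, with 2 for Mcm6.

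Several disagreements lay on P3 replicate 1. The second probe set of Rrm1 gave 3.53 on this array and 60.8 and 73.0 on the other P3 arrays, while the brightest gave 217, 125 and 203. The second probe set of Rpa1 gave 65.1 against 278 and 352, and that of Rpa2 12.5 against 84.8 and 83.3, where the brightest probe sets of both genes had P3 signals within a narrow range. The changes by these dimmer probe sets were 0.48 (SE 1.06) for Rrm1, 0.69 (SE 0.56) for Rpa1 and -0.74 (SE 0.82) for Rpa2. The brightest probe sets of Mcm5, Pold1, Fen1 and Rrm2 are of a type whose probes may also match other transcripts, and those of Gins2, Mcm2, Mcm3 and Mcm7 of a type that may match more than 1 transcript. The signals of these genes carry that uncertainty.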

How the data were processed

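RNA of the CSE of P3 and adult mice was measured on 6 Affymetrix Mouse Genome arrays, 3 per stage. The deposited values are MAS5.0 intensities, not logged, which the authors had scaled to a trimmed mean of 100 on each array. Their processing notes name GCOS 1.2 and the methods another version. The intensities were used as deposited, and all 6 columns were matched by their labels.

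The background level of an array was the 90th percentile of 83 receptor probe sets (olfactory, vomeronasal and bitter taste genes). The 29036 of 45101 probe sets that exceeded it on 3 or more arrays were tested after log2 transformation with limma 3.58.1 under R 4.3.3 (lmFit, eBayes with trend, stage as the only factor). Calls needed a Benjamini-Hochberg adjusted p under 0.05 over all probe sets tested and a fold of at least 2. The methods' SAM was replaced by limma. The exact permutation test of 3 arrays against 3 cannot go below p = 0.1. SE is limma's moderated standard error, and "at least" marks a fold against the background level, used if no array of the lower stage exceeded background. The number of arrays limits the precision.

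Genes were named from a platform annotation of 2016, in which 34945 probe sets name 1 gene, 932 several and 9160 none. Of 262 entries in the gene lists, 21 were not matched and were not analysed here. Lists are described by counts and medians, beside those of all genes, with no test of a list. The members and lists were chosen with earlier results of these data known. All members may be named, with up to 4 called genes per direction and 1 other of each further list. Tk2 was named beyond this rule after its value was seen. The promoter windows came from RefSeq and were searched in Python 3.11.15.

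Besides the members, the lists covered other replication genes, 6 repair pathways, the damage checkpoint, dividing cells and 10 cell types. Calls and medians that were not given with the results follow here, by tested genes. Of all genes, 5.49% were called higher at P3 and 4.53% in the adult. B lymphocytes had 0 of 5 called (median 1.50), macrophages 1 of 8 higher at P3 (0.05) and endothelium 0 of 6 (-0.54). Schwann cells had 0 of 3 called (0.46) and neurons 2 of 7 higher in the adult (1.02). Hair cell markers had 1 of 7 called higher in the adult (-0.32), and supporting cell markers 5 of 12 higher at P3 and 1 in the adult (-0.64).

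Alternative settings were eBayes without the trend, scaling to equal medians, quantile normalization, a looser and a stricter signal filter, the mean background added to signals, a floor at the background level, array quality weights, the replicate number as a block, the mean over the probe sets of a gene, and each array left out in turn. The procedure was tested on simulated data.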

Additional observations from a re-analysis of the deposited data

How the results depend on the processing

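The direction of the member values was steadier than their calls. Over 16 alternative analyses of the members, 543 of 622 values kept their direction and side of the threshold, and 14 changed sign. The direction was kept and the call lost for 39, and 26 kept the direction and gained a call. All 39 lost calls belonged to the 6 members called in the main analysis, each of which was called in 8 to 12 of the 16 alternatives. With 3 arrays per stage, calls near the threshold depended on the spread estimate, and the cause of each change in a call was not tested. Scaling to the same median left 0 members and 0 of their probe sets called by limma (13 members higher at P3 at an unadjusted p under 0.05), 0 repair genes, 1 other replication gene, and 284 and 280 probe sets in all higher at P3 and in the adult, against 1125 and 984. Without the trend, 1 member, 1 member probe set, 1 repair gene and 2 other replication genes were called, and 485 and 414 probe sets in all. With array quality weights (0.15 for P3 replicate 1, 5 for adult replicate 3) the numbers were 17 members, 28 of their probe sets, 10 repair genes, 10 other replication genes, and 3182 and 4411 probe sets in all. Flooring at background gave 10 members, 12 of their probe sets and 4 repair genes, and adding the mean background gave 9 members, 11 of their probe sets and 5 repair genes. Quantile normalization and the unfiltered table gave 4 members, 1 repair gene and 2 other replication genes each.

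The shared replicate numbers were not taken as pairs, since the correlation of deviations was 0.182, 0.213 and 0.076 for replicates 1, 2 and 3, although each array correlated best with its own number, a hint from the data and not from the design. With the replicate block 8 members, 4 repair genes and 3 other replication genes were called higher at P3 and 1 other replication gene in the adult.

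With each array left out in turn, 0 to 8 members and 0 to 11 of their probe sets were called higher at P3, 0 to 2 repair genes and 1 to 5 other replication genes, and 342 to 1440 probe sets in all higher at P3 and 234 to 1399 in the adult. The median change of the fork genes ranged from -0.98 to -0.66 and that of the repair genes from -0.52 to -0.36. Signs turned for members with small or poorly measured changes. Orc1 ranged from -1.09 to 0.13 over the arrays left out, Mcm10 from -0.63 to 0.85, Fen1 from -0.38 to 0.36 and Rfc1 from -0.20 to 0.07. Under array quality weights the change was 0.27 for Orc1, 0.17 for Mcm2 and -0.81 for Mcm10, and with flooring -0.80 for Mcm10. Averaging the probe sets of a gene gave -0.01 for Orc2 and 0.04 for Cdc45, and Tyms was at 0.63 without the signal filter, where another of its probe sets was the brightest. No scaling moved the median of all probe sets by over 0.1 on the log2 scale (0.04, 0.05 and 0.07).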
